A study of Mus musculus with 14 samples.

Results

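Retained-intron transcripts are annotated transcripts of a gene in which sequence that other transcripts splice out stays in the RNA. The transcripts described here carry the label retained_intron in the deposited tables and had a mean estimated count of at least 20 over the 14 libraries. There were 2818 of them from 2150 gene symbols, out of 19660 transcripts with that label and 131100 transcripts in all. Of these genes, 1623 had 1 such transcript, 410 had 2, 96 had 3, 20 had 4 and 1 had 7. The members were chosen by their own estimated counts. Just inside the threshold were Cyb5r4-202 (mean 20.012), Ebf4-205 (20.013) and Ric8a-207 (20.020), and just outside were Ywhag-204 (19.995), Zfyve27-208 (19.994) and Eps15-203 (19.993).

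Introns are removed from most messenger RNAs by the spliceosome, which recognises a donor site that usually begins with GT and an acceptor site that usually ends with AG. A transcript that keeps an intron can be held in the nucleus, where it may be spliced later, or can be degraded in the cytoplasm when the intron brings a premature stop codon. Genes of splicing factors and of the Clk kinases that phosphorylate them are known for introns of this kind. Estimates from short reads do not separate a stable transcript with an intron from RNA caught before splicing, and the values below cover both.

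Cortical neurons of mouse embryos at E16.5 were grown in primary culture, and RNA was sequenced. Every culture, wild type included, first received the sodium channel blocker tetrodotoxin (1 µM) together with APV (100 µM), an antagonist of NMDA receptors, on day 5. On day 6 a culture was kept basal or depolarised with 50 mM KCl for 1 h. Brg1 (Smarca4), the motor subunit of BAF complexes, which remodel chromatin, carried the knock-in change S1382A in the SA line and S1382E in the SE line, and each line had its own wild type. The SA mutant, the wild type of the SA line and the SE mutant had 2 libraries each at basal and after KCl, and the wild type of the SE line had 1 of each. The labels used here do not say whether replicates came from separate cultures or embryos, so p-values measure the spread between these libraries, which may be technical. Values of the SA line are listed in the order wild type 1, wild type 2, SA 1, SA 2, and those of the SE line in the order wild type, SE 1, SE 2.

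Introns of members named in the results are shown first, to let a reader see what the annotated transcripts contain. The tests used estimates for whole transcripts, and reads over single introns were not counted. Coordinates are 1-based positions in GRCm38 from the GENCODE M21 annotation, and each sequence was read from the GENCODE transcript that contains it. Each lies between coding exons of a protein-coding transcript of its gene and is printed 5′ to 3′ on the strand of the gene, with the GT of the donor and the AG of the acceptor in capitals. Ip6k2-207 fell in level and in ratio to its gene's other transcripts after KCl in both lines, and the stretch it keeps is spliced in several ways by coding transcripts, of which a pair of short introns is shown. Gadd45g-202 and Ccnl1-202 rose in both lines, and Hes6-202 fell in the SA line, with SA-line calls that were lost in many of the alternative analyses (numbers below).
Ip6k2-207 chr9:108796573-108796670 plus strand, whole intron: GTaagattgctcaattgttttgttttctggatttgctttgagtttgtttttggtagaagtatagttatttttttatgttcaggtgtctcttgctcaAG
Ip6k2-207 chr9:108798179-108798270 plus strand, whole intron: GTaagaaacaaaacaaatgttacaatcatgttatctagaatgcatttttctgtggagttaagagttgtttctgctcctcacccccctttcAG
Gadd45g-202 chr13:51847454-51847555 plus strand, whole intron: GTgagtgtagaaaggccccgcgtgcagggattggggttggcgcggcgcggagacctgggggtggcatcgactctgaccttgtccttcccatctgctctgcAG
Ccnl1-202 chr3:65948009-65948261 minus strand, whole intron: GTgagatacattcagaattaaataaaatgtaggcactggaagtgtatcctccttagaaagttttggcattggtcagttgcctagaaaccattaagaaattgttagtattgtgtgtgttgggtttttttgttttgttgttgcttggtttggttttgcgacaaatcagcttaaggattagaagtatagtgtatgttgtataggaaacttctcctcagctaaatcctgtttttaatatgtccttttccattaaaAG
Hes6-202 chr1:91412483-91412720 minus strand, whole intron: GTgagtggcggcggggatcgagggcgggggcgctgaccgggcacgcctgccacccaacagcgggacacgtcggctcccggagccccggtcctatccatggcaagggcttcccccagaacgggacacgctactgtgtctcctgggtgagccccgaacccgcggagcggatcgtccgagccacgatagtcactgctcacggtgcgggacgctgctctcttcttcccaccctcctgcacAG

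For other members the splice sites alone are shown, and for Clk1-204 and Clk4-213 those of a single intron among several. A donor window holds the last 3 bases of the exon and the first 17 of the intron, an acceptor window holds the last 20 bases of the intron and the first 3 of the exon, and the coordinates are those of the whole intron. The Clk1, Clk4, Atp11b and Abcc5 members fell in ratio to the other transcripts of their genes after KCl in the SE line, and Slc25a3-208 and Slc2a3-204 rose in both lines.
Clk1-204 chr1:58417180-58417266 minus strand, donor window: tttGTaagtatcacattaaa
Clk1-204 chr1:58417180-58417266 minus strand, acceptor window: tttttttaacgtgtttatAGccg
Clk4-213 chr11:51275865-51276117 plus strand, donor window: atgGTaagttaaagacttgt
Clk4-213 chr11:51275865-51276117 plus strand, acceptor window: ttattcaattgtgtctctAGaaa
Atp11b-203 chr3:35837590-35839048 plus strand, donor window: ctgGTaagtggctacactat
Atp11b-203 chr3:35837590-35839048 plus strand, acceptor window: gtctctgtctttctttgcAGgcc
Abcc5-209 chr16:20402335-20404565 minus strand, donor window: ccaGTaagttctgactatcc
Abcc5-209 chr16:20402335-20404565 minus strand, acceptor window: tgacagaagctgttctttAGaat
Slc25a3-208 chr10:91122332-91123557 minus strand, donor window: aagGTgaggtcgcaccctgc
Slc25a3-208 chr10:91122332-91123557 minus strand, acceptor window: ttttttcttcaatcaaacAGagc
Slc2a3-204 chr6:122737299-122739832 minus strand, donor window: cagGTactgagcagacactg
Slc2a3-204 chr6:122737299-122739832 minus strand, acceptor window: ctttgtctttaaccttgcAGacg

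The annotation held 2768 of the 2818 members with the same version and length. Of these, 1282 contained at least 1 whole intron of a protein-coding transcript of their gene, 882 of them at exactly 1 place. A further 1338 contained only part of such an intron and 148 contained neither. The members held 2169 different whole introns with a median length of 311 bases (quartiles 131 and 824), against 1157 bases (369 and 3077.5) for the 31179 other introns of the same genes. Introns of at most 300 bases made up 49.4% of the held and 21.7% of the other introns. Of the held introns, 97.1% began with GT and ended with AG, 1.52% began with GC and ended with AG, and 5 began with AT and ended with AC. The donor began with GTAAG or GTGAG in 49%, the median GC content was 52%, and 90.9% lay between coding exons.

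Libraries held 22625916 to 23096206 estimated counts. All transcripts with the retained_intron label took 1.54% to 1.67% of a library's estimated counts and 2.61% to 2.96% of its TPM, a unit that divides counts by transcript length and has the same sum in every library. The share of counts was 1.57% to 1.67% at basal and 1.54% to 1.65% after KCl in the SA line, and 1.59% to 1.64% and 1.60% to 1.63% in the SE line, so that treatments and lines overlapped. In earlier work on these data the basal and KCl libraries numbered 1 of the SA-line wild type stood apart, and the main counts are given with and without this pair. Summed over 10 neuronal marker genes, libraries held 3120 to 4846 TPM in the SA line and 4156 to 4641 in the SE line. The 7 markers of neural progenitors and dividing cells summed to 191 to 460 and 43.2 to 46.7 TPM, the 5 of astrocytes to 782 to 1299 and 170 to 223, and the 6 of the oligodendrocyte lineage to 316 to 457 and 63.8 to 75.8. Sums were 13.6 to 19.9 and 3.90 to 5.87 TPM over 5 microglial markers, 7.23 to 22.8 and 2.35 to 3.21 over 5 of endothelial and mural cells, and 37.3 to 98.5 and 8.09 to 11.4 over 6 of meningeal fibroblasts. In the SE line, 2 of the microglial, 4 of the endothelial and mural and 1 of the meningeal markers stayed under 1 TPM in every library.

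**Figure D1:**
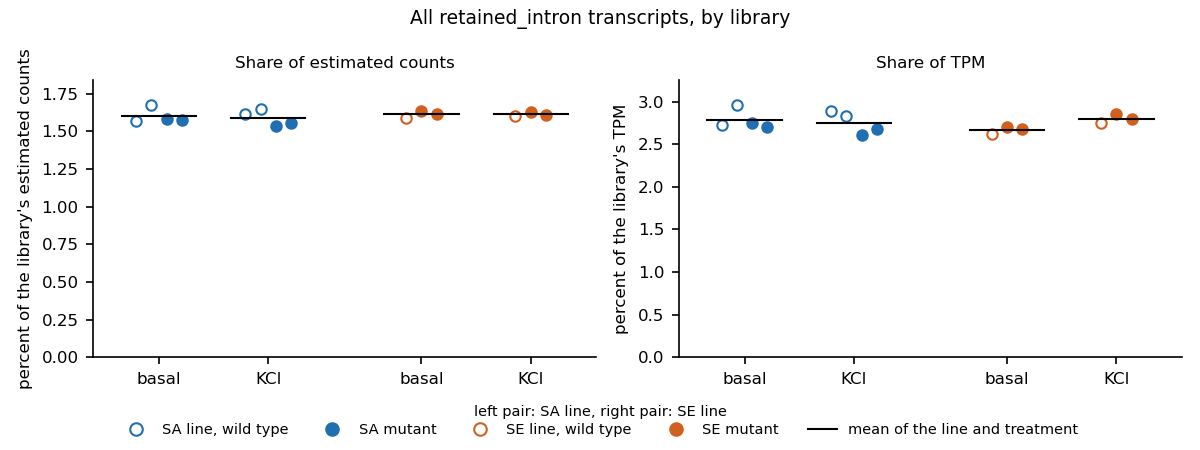
Share of each library's estimated counts (left panel, percent) and TPM (right panel, percent) on all retained_intron transcripts, by line and treatment. Open points are wild-type and filled points mutant libraries, and lines are means of 4 libraries in the SA line and 3 in the SE line; the highest point on the left is wild type 2 of the SA line at basal (1.67%).

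The members were mostly minor products of their genes. A member's mean share of its gene's TPM had a median of 6.46% and quartiles of 2.49% and 16.2%. The median of the mean estimated count was 44.4 and the highest was 4251. A total of 353 members (12.5%) were listed at 0 in at least 1 library. Reads shared by transcripts of a gene are divided among them by the quantification model, so a member listed at 0 may have had reads that went to another transcript.

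The member with the highest mean TPM (531) was Ppia-203, from the gene of the peptidyl-prolyl isomerase cyclophilin A, and it made up 17.8% to 23.6% of the gene's TPM. Rps16-202, from the gene of a small ribosomal subunit protein, contained 1 whole intron and made up 53.7% to 65.7% of its gene's TPM. Vim-203, from the gene of the intermediate filament protein vimentin, made up 33.2% to 39.3% of its gene's TPM, while its level was 14 to 22.7 CPM in the SE line and 41.5 to 172 CPM in the SA line. CPM are counts scaled to a common library total after TMM normalization. Ppia-204, Ap2m1-204, Rpsa-202, Uchl1-202 and Rps2-203 were the others among the top 8 by mean TPM.

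The first question was which of these transcripts changed within 1 h of KCl. Between 4 KCl and 4 basal libraries of the SA line, 24 members rose and 6 fell in edgeR's quasi-likelihood test, at an adjusted p under 0.05 over all 30385 transcripts tested. These were 0.852% and 0.213% of the members, near the 0.803% and 0.191% of all transcripts. Between 3 and 3 libraries of the SE line, 51 members rose and 32 fell, which were 1.81% and 1.14% of the members beside 1.29% and 0.589% of all transcripts. The median log2 change over the members was -0.00385 and -0.013 in the lines, and over all transcripts -0.00441 and 0.000174. Of the members that rose, 18 were called in both lines (75% of the SA-line and 35.3% of the SE-line calls). Ip6k2-207 and Sptlc2-203 fell in both (33.3% and 6.25%), and no member was called in opposite directions. The level call was lost in 10 of 15 alternative analyses for Ip6k2-207 and 14 of 15 for Sptlc2-203 in the SA line, and in 1 of 12 and 9 of 12 in the SE line. The SA-line call was lost in 14 of 15 for Gadd45g-202, 9 of 15 for Ccnl1-202, 13 of 15 for Hes6-202, 12 of 15 for Tra2a-205 and 10 of 15 for Srsf5-212, and in none of 15 for Fosb-204, Slc6a17-204 and Slc25a3-208. Some members that rose passed the minimum mean only through their KCl libraries, and their rise is a description. Basal estimated counts were 0 to 4.47 for Fosb-204, 0 to 4.32 for Gadd45b-202 and 3.77 to 13.1 for Gadd45g-202. They were 8.01 to 15 for Ahi1-205 and 11.3 to 19.4 for Slc6a17-204. For Ccnl1-202 (5.96 to 44.9) and Tpt1-206 (10.5 to 25.8) the basal libraries averaged just under 20.

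The calls depended on single libraries. Without the wild-type pair that stood apart, 20 members were called in the SA line instead of 30. Leaving out 1 library gave 12 without SA KCl 1, 18 without SA KCl 2, 13 without SA basal 1, 16 without SA basal 2, 19 without wild-type basal 1 and 17 without wild-type basal 2. Leaving out any 1 of the 6 libraries of the SE line gave 26 to 50 called members there instead of 83, the fewest without SE KCl 1.

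Each member was also set against the summed other transcripts of its gene, leaving out all with the retained_intron label. The log2 ratio of the member to this sum was tested with limma in 23324 transcripts, 2785 of them members. It rose for 7 members and fell for 7 in the SA line (0.251% each), beside 0.141% and 0.133% of all transcripts. For the SE line it rose for 18 and fell for 34 (0.646% and 1.22%), beside 0.519% and 0.57%. The ratio rose in both lines for Slc6a17-204, Slc25a3-208, Slc2a3-204 and Ahi1-205, and fell in both for Ip6k2-207, Atp11b-203, Cpsf4-203, Abcc5-209 and Wsb1-206. For Slc6a17-204 and Ahi1-205, which passed the minimum mean only through the KCl libraries, the rise is a description. The SA-line ratio call was lost in 2 of 15 alternative analyses for Slc6a17-204, 4 of 16 for Slc25a3-208, 3 of 16 for Slc2a3-204 and 1 of 16 for Ip6k2-207, against 13 of 15 for Ahi1-205, 12 of 16 for Atp11b-203, 12 of 15 for Cpsf4-203, 11 of 16 for Abcc5-209 and 12 of 16 for Wsb1-206. The 14 SA-line calls became 9 without SA basal 1 and 9 without SA KCl 2, and the 52 SE-line calls became 22 without the wild-type basal and 22 without the wild-type KCl library. The sum of other transcripts itself, tested with edgeR for 14732 gene symbols, rose in the SA line for 31 of 2119 member genes and fell for 1 (1.53% and 0.848% of all genes), and in the SE line rose for 52 and fell for 3 (2.16% and 1.13%).

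**Figure D2:**
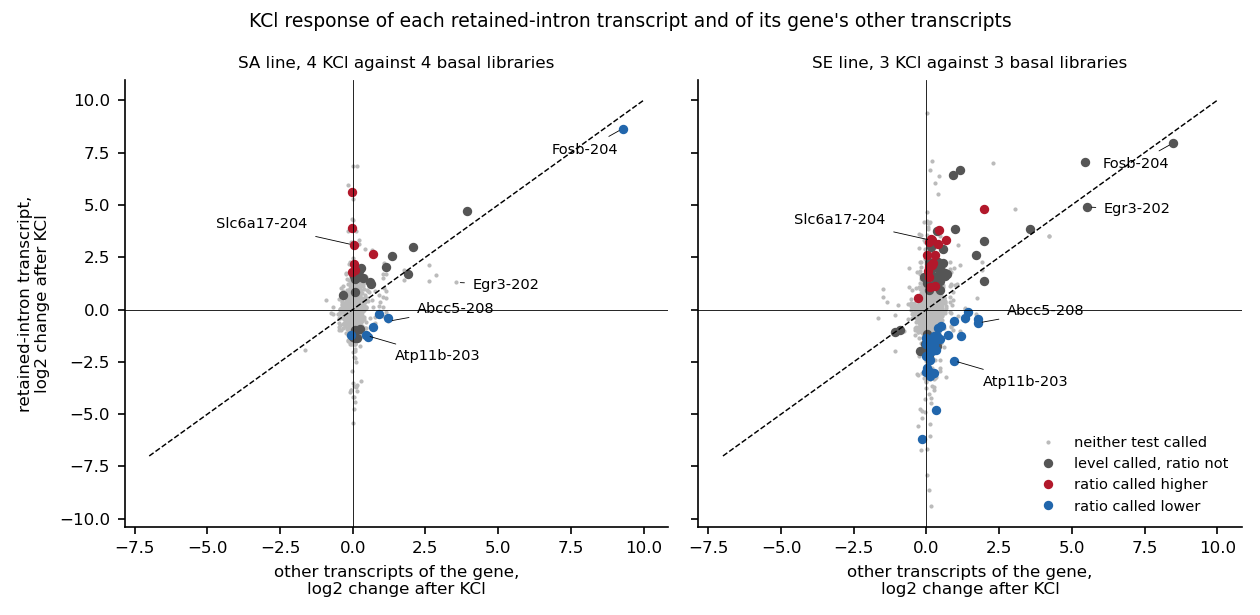
Log2 change after KCl of each retained-intron transcript (vertical axis) against that of the summed other transcripts of its gene (horizontal axis), in the SA line (left) and the SE line (right). Each point is 1 member, coloured by the tests at an adjusted p under 0.05, and on the dashed line both changed equally; Fosb-204 lies at the upper right, near that line.

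The members whose ratio rose in both lines belonged to genes whose other transcripts did not pass the test. Slc6a17 encodes a transporter of neutral amino acids on synaptic vesicles, and Slc6a17-204 lies at chr3:107489773-107518018 with part of an intron. It was at 0.64, 0.71, 0.54 and 0.59 CPM in the basal and 5.95, 5.54, 6.13 and 3.62 CPM in the KCl libraries of the SA line. The SE line had 0.88, 0.78 and 0.51 CPM at basal and 6.78, 7.62 and 6.36 CPM after KCl. Every KCl library was above every basal library in both lines. The log2 change ± its standard error was 3.08 ± 0.26 in the SA line and 3.30 ± 0.30 in the SE line. The basal libraries of both lines held 11.3 to 19.4 estimated counts of Slc6a17-204. It passed the minimum mean only through the KCl libraries, so these values are a description. The other transcripts changed by 0.03 ± 0.18 and 0.18 ± 0.21 and were not called.

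Slc25a3 encodes the phosphate carrier of the inner mitochondrial membrane, and Slc25a3-208 contains 1 place with a whole intron. It was at 8.22, 8.17, 8.17 and 6.38 CPM at basal and 25.7, 30.8, 31.5 and 28 CPM after KCl in the SA line, and at 7.50, 9.08 and 6.96 and 29.5, 34.7 and 37.9 CPM in the SE line. Treatments did not overlap in either line. The log2 changes were 1.91 ± 0.13, adjusted p = 0.000336, and 2.11 ± 0.15, adjusted p = 0.000306. Its share of the gene's TPM was 0.75% to 1.18% in the 7 basal and 2.68% to 3.61% in the 7 KCl libraries. The other transcripts, at 259 to 365 CPM, changed by 0.08 ± 0.09 and 0.19 ± 0.10.

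Slc2a3-204, from the gene of a neuronal glucose transporter, was at 0.79, 2.33, 2.11 and 1.81 CPM at basal and 7.75, 12.9, 13.7 and 10.6 CPM after KCl in the SA line. In the SE line it was at 1.18, 1.49 and 1.14 and then 10.2, 13.5 and 14.3 CPM, again without overlap in either line. The ratio to other transcripts rose by 2.02 ± 0.21, adjusted p = 0.0102 (limma), and 2.63 ± 0.24, adjusted p = 0.0043. The other Slc2a3 transcripts were at 106 to 110 CPM at basal and 155 to 185 CPM after KCl in the SE line, without overlap, and changed by 0.69 ± 0.22, adjusted p = 0.177, there and by 0.70 ± 0.19, adjusted p = 0.122, in the SA line. Ahi1 is a gene of the primary cilium, and Ahi1-205 went from a range of 0.34 to 0.61 to one of 1.42 to 1.82 CPM in the SA line and from 0.36, 0.49 and 0.68 to 2.92, 3.21 and 3.07 CPM in the SE line. Its level call in the SA line (1.79 ± 0.31) was lost in 14 of 15 alternative analyses. Ahi1-205 held 8.01 to 15 estimated counts in the basal libraries. It passed the minimum mean only through the KCl libraries, so these values are a description.

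Further members passed at least 1 of the tests. Tpt1-206, from the gene of the translationally controlled tumour protein, went from 0.55, 0.68 and 0.90 to 6.50, 6.86 and 6.16 CPM in the SE line, and was at 0.44 to 1.10 and 1.24 to 3.49 CPM in the SA line. Tpt1-206 passed the minimum mean only through the KCl libraries, so its values are a description. Pitpnm2-203 went from 0.97, 0.20 and 0.23 to 4.31, 3.21 and 3.37 CPM in the SE line, while its SA-line libraries overlapped between treatments (0.93 to 2.96 and 1.71 to 3.28 CPM). Ccdc174-203 changed by 3.16 ± 0.30, adjusted p = 0.00154, in the SE line and by 1.12 ± 0.24, adjusted p = 0.105, in the SA line. Hspa8-208, from the gene of a constitutive heat shock protein, was at 4.31, 3.57 and 3.63 and 7.49, 8.20 and 8.49 CPM in the SE line and overlapped between treatments in the SA line (3.74 to 4.68 and 4.35 to 5.93 CPM). Aldoa-209, from the gene of a glycolytic aldolase, rose in the SE line from 1.94, 1.82 and 2.19 to 8.33, 9.0 and 7.40 CPM, and its ratio rose by 1.98 ± 0.34, adjusted p = 0.0458 (limma). Actg1-207, from the gene of cytoplasmic gamma-actin, changed in ratio by 1.98 ± 0.33, adjusted p = 0.0395, in the SE line and by 1.01 ± 0.29, adjusted p = 0.39, in the SA line. Ckb-204, from the gene of brain creatine kinase, was at 9.70, 9.17 and 10.6 CPM at basal and 20.5, 25.2 and 19.1 CPM after KCl in the SE line, with a ratio change of 0.86 ± 0.12, adjusted p = 0.0208. Map1lc3b-202, from a gene of autophagosome formation, changed in ratio by 1.46 ± 0.24, adjusted p = 0.0354, there. Rheb-203, from the gene of a small GTPase that activates mTORC1, rose in level in both lines (1.53 ± 0.24, adjusted p = 0.0291, and 2.12 ± 0.29, adjusted p = 0.00969). Plppr4-202 was called in the SA line, where it rose from 0.35, 0.69, 0.97 and 0.80 to 2.0, 3.52, 3.76 and 3.04 CPM. None of these differences between lines passed the test of the difference itself, which is given below. The SE-line ratio call was lost in 10 of 12 alternative analyses for Aldoa-209, Actg1-207 and Map1lc3b-202, 11 of 13 for Hspa8-208 and 7 of 13 for Ckb-204. It was lost in 5 of 12 for Tpt1-206 and 3 of 12 for Pitpnm2-203 and Ccdc174-203. The level call of Rheb-203 was lost in 13 of 15 in the SA line and 2 of 12 in the SE line.

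Another group rose together with the genes. Of the 24 members that rose in the SA line, the other transcripts were called higher for 9, and of the 51 in the SE line for 15. The list of immediate early genes, which are transcribed soon after activity without new protein, had 6 members from 5 genes, of which 3 rose in the SA line and 4 in the SE line and none fell, beside 0.803% and 1.29% of all transcripts that rose. The 3 of the SA line, Fosb-204, Gadd45b-202 and Gadd45g-202, also rose in the SE line. They passed the minimum mean only through their KCl libraries. These counts are therefore a description and cannot be compared with the shares of all transcripts. Fosb encodes a transcription factor of the Fos family, and Fosb-204 is a single exon at chr7:19306416-19310044 with whole introns at 2 places. It was at 0.05, 0.04, 0 and 0 CPM at basal and 6.17, 6.58, 7.41 and 5.46 CPM after KCl in the SA line, and at 0.11, 0.17 and 0.20 and 33.4, 46.6 and 31 CPM in the SE line. The other Fosb transcripts went from a range of 0.46 to 1.10 to one of 384 to 447 CPM and from a range of 3.56 to 4.97 to one of 1353 to 1743 CPM. After KCl the member made up 1.24% to 1.56% of the gene's TPM in the SA line and 2.10% to 2.58% in the SE line.

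Gadd45b and Gadd45g encode small stress proteins. Gadd45g-202 was at 0.53, 0.42, 0.39 and 0.29 CPM at basal and 1.60, 1.09, 1.28 and 1.38 CPM after KCl in the SA line, and at 0.42, 0.17 and 0.17 and 3.21, 4.34 and 2.95 CPM in the SE line, without overlap. Its ratio changed by -0.24 ± 0.29 and 0.23 ± 0.33 and was not called. Gadd45b-202 went from a range of 0 to 0.13 to one of 1.37 to 2.48 CPM in the SA line and from a range of 0 to 0.20 to one of 9.17 to 12.6 CPM in the SE line. Egr3-202, from the gene of a zinc finger transcription factor, rose in the SE line from 3.16, 0.66 and 0.91 to 33.1, 47.3 and 32.7 CPM, a call lost in 9 of 12 alternative analyses. Its change in the SA line was 1.30 ± 0.61, adjusted p = 0.774, with 0.79, 13, 11.2 and 13.6 CPM at basal and 19.9, 22.4, 22.6 and 26.3 CPM after KCl, where wild type 1 was far below the other basal libraries.

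Ccnl1 encodes cyclin L1, which takes part in transcription and splicing. Ccnl1-202 went from 0.95, 1.25, 1.95 and 0.82 to 4.72, 7.76, 4.95 and 3.13 CPM in the SA line and from 0.43, 0.27 and 0.29 to 7.17, 9.03 and 10.3 CPM in the SE line. The SE-line change of 4.79 ± 0.44 stood beside 1.97 ± 0.12 for the other transcripts, and the ratio rose by 2.73 ± 0.35. Basal libraries of the SE line held 5.96 to 9.49 estimated counts of Ccnl1-202. It passed the minimum mean only through the KCl libraries, so these values are a description. Another member of the gene, Ccnl1-206, rose by 1.34 ± 0.22, adjusted p = 0.0217, with a ratio change of -0.58 ± 0.26 that was not called. Pcdh8-203, from the gene of a protocadherin, rose in the SA line from a range of 0.90 to 1.75 to one of 6.86 to 7.86 CPM, a change of 2.58 ± 0.34, adjusted p = 0.0111, beside 1.34 ± 0.13 for the other transcripts.

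**Figure D3:**
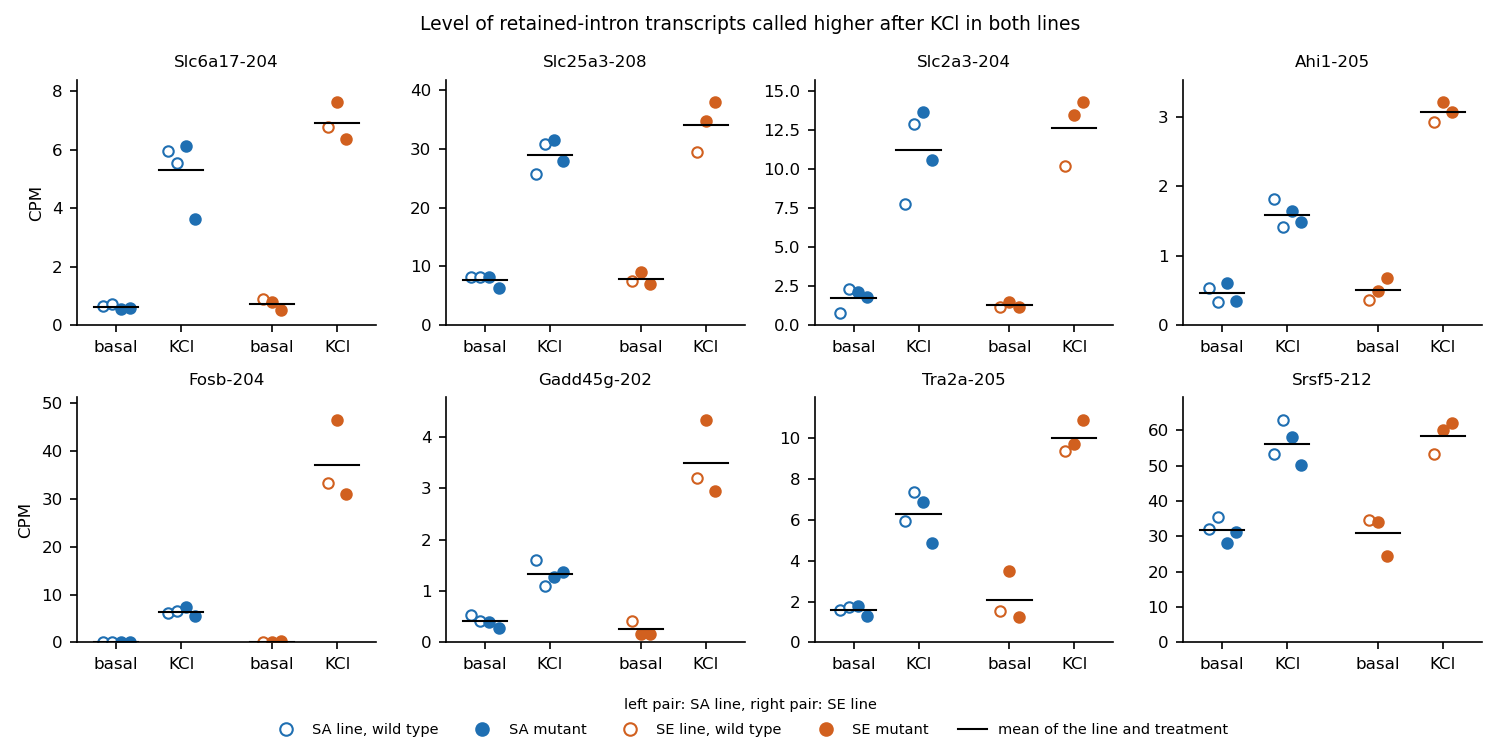
Level in CPM (vertical axis, linear, from 0) of 8 retained-intron transcripts called higher after KCl in both lines, by line and treatment, 1 point per library (open wild type, filled mutant) with the mean as a line. In each panel every KCl library of a line stands above every basal library of that line, and Fosb-204 reaches 46.6 CPM.

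In a further class the other transcripts of the gene rose while the member's ratio to them fell. For the SE line this held for 10 of the 34 members whose ratio fell: Ip6k2-207, Atp11b-203, Atp11b-202, Cpsf4-203, Abcc5-209, Abcc5-208, Clk1-204, Clk4-213, Wsb1-206 and Rbm5-219. For the SA line it held for 5 of 7: Fosb-204, Ip6k2-207, Cpsf4-203, Abcc5-209 and Wsb1-206. The basal ratio of Fosb-204 there rests on libraries with at most 1.16 estimated counts of the member.

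Ip6k2 encodes an inositol hexakisphosphate kinase. Ip6k2-207, at chr9:108783822-108798834, was at 18.5, 18.1, 17.7 and 15.9 CPM at basal and 11.6, 7.80, 10.2 and 9.70 CPM after KCl in the SA line, and at 26.3, 29 and 27.1 and 11.1, 11.8 and 12.5 CPM in the SE line. The other transcripts went from a range of 50.3 to 56.3 to one of 78.6 to 92.6 CPM and from a range of 86.3 to 92.1 to one of 141 to 147 CPM. The member was thus lower and the rest of the gene higher in every KCl library. Its share of the gene's TPM was 9.39% to 11% in the basal and 2.77% to 4.70% in the KCl libraries. The log2 ratio changed by -1.53 ± 0.13, adjusted p = 0.0054, and -1.92 ± 0.15, adjusted p = 0.0024 (limma).

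Atp11b encodes a phospholipid flippase. Atp11b-203 was at 14.3, 21.6, 22.6 and 22.1 CPM at basal and 7.95, 11.5, 8.94 and 5.92 CPM after KCl in the SA line, and at 13.6, 16.1 and 10.5 and 2.26, 2.34 and 2.74 CPM in the SE line, without overlap. Its level change was -2.45 ± 0.28, adjusted p = 0.00425, in the SE line and -1.24 ± 0.23, adjusted p = 0.0577, in the SA line. The other transcripts changed by 0.93 ± 0.14, adjusted p = 0.00633, and 0.46 ± 0.12, adjusted p = 0.12, in the same order. Cpsf4 encodes a subunit of the pre-mRNA cleavage and polyadenylation machinery, and Cpsf4-203 went from a range of 15.1% to 24.1% to one of 4.98% to 6.75% of the gene's TPM in the SA line and from a range of 19.6% to 26.3% to one of 5.13% to 6.07% in the SE line.

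Abcc5 encodes an exporter of organic anions. Abcc5-209 was at 16.3, 22, 17.3 and 16.6 CPM at basal and 13.8, 14.2, 14.7 and 11 CPM after KCl in the SA line, a change of -0.43 ± 0.13 that was not called. The other transcripts rose there from a range of 12.7 to 14 to one of 27 to 34.7 CPM. The ratio changed by -1.63 ± 0.21, adjusted p = 0.0347, and in the SE line by -2.21 ± 0.25, adjusted p = 0.00844 (limma). Wsb1-206, from the gene of an adaptor of a ubiquitin ligase, changed by -0.20 ± 0.18 and -0.11 ± 0.21 in level, neither of them called, while the other transcripts rose by 0.91 ± 0.13, adjusted p = 0.00447, and 1.43 ± 0.15, adjusted p = 0.000577.

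The Clk genes encode kinases of serine- and arginine-rich splicing factors. Clk1-204, at chr1:58416143-58424066, was at 9.79, 11.3 and 8.21 CPM at basal and 6.76, 7.26 and 8.57 CPM after KCl in the SE line, with overlap. The other Clk1 transcripts rose there from 20.5, 21.5 and 20.3 to 48.5, 49.7 and 54 CPM. The member's share of the gene's TPM went from 15.1%, 15.1% and 13.8% to 5.69%, 6.14% and 6.55%, without overlap, and from 13.8%, 15.2%, 16.8% and 18.1% to 11%, 12.4%, 10.3% and 9.0% in the SA line. The log2 ratio changed by -1.66 ± 0.19, adjusted p = 0.00844, in the SE line and -0.94 ± 0.16, adjusted p = 0.103, in the SA line. Clk4-213 changed in ratio by -1.24 ± 0.21, adjusted p = 0.0437, and -0.34 ± 0.18, adjusted p = 0.875, in that order. Rbm5-219, from the gene of an RNA-binding splicing regulator, changed by -1.24 ± 0.21, adjusted p = 0.0407, and -0.86 ± 0.18, adjusted p = 0.179.

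**Figure D4:**
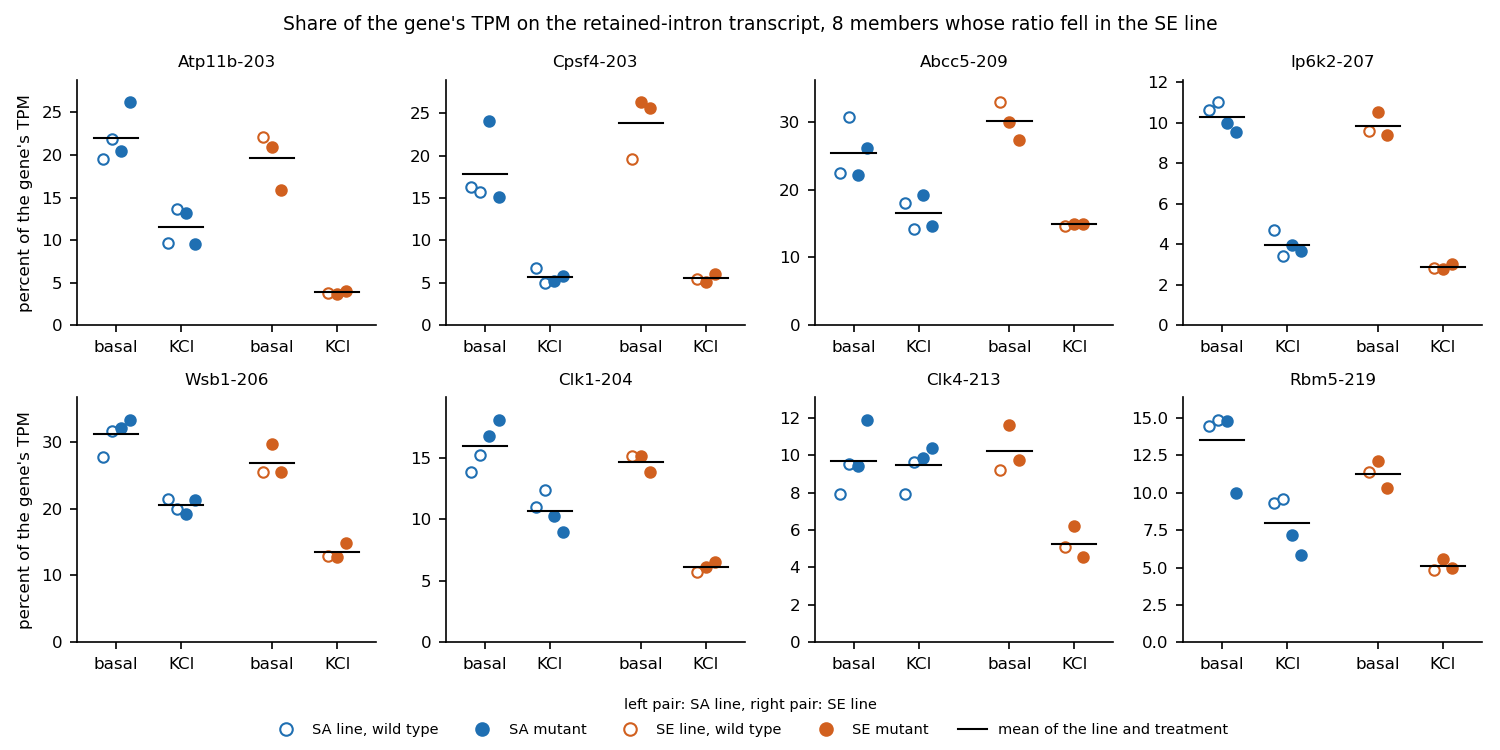
Share of the gene's TPM (percent, from 0) on 8 retained-intron transcripts whose ratio to other transcripts fell in the SE line, by line and treatment, 1 point per library (open wild type, filled mutant) with the mean as a line. In the SE-line pairs every KCl library stands below every basal library, as for Ip6k2-207 (basal 9.39% to 10.5%, KCl 2.77% to 3.01%).

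The list of splicing and RNA-binding genes, which also holds the O-GlcNAc transferase gene Ogt, had 118 members from 67 genes. In level, 2 rose and none fell in the SA line, and 6 rose and 7 fell in the SE line. These were 1.69% higher in the SA line, beside 0.803% of all transcripts, and 5.08% higher and 5.93% lower in the SE line, beside 1.29% and 0.589%. The ratio was called for none in the SA line (limma), and in the SE line it rose for none and fell for 10: Rbm25-206, Celf4-204, Acin1-205, Ptbp2-205, Nktr-213, Snrnp70-213, Rbm39-205, Clk1-204, Clk4-213 and Rbm5-219 (8.47%, beside 0.57% of all transcripts). Most of these calls did not hold. They were lost in 11 of 12 alternative analyses for Ptbp2-205 and Nktr-213, 10 of 12 for Celf4-204 and Acin1-205, and 9 of 12 for Rbm39-205. The losses were 11 of 13 for Clk4-213, 9 of 13 for Rbm5-219 and Snrnp70-213, 4 of 13 for Rbm25-206 and 3 of 13 for Clk1-204. The median log2 ratio change over the list was -0.04 in the SA line and -0.33 in the SE line, beside -0.01 and -0.06 over all members. Rbm25 encodes a splicing regulator, and Rbm25-206 went from 7.69, 6.85 and 4.12 to 1.40, 0.72 and 1.65 CPM in the SE line. It was at 7.01 to 9.83 and 2.79 to 4.03 CPM in the SA line, also without overlap (-1.30 ± 0.28, adjusted p = 0.101). Ptbp2-205, from the gene of the neuronal polypyrimidine tract binding protein, went from 2.25, 2.45 and 1.47 to 0.55, 0.40 and 0.59 CPM in the SE line. Celf4-204, from the gene of a neuronal splicing regulator, fell there from 2.67, 2.69 and 1.99 to 0.63, 0.51 and 0.41 CPM, and Acin1-205 changed in ratio by -2.13 ± 0.32, adjusted p = 0.0265.

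The splicing genes with members that rose were Tra2a and Srsf5 in both lines and Tra2b, Clk3, Hnrnpll and Ptbp1 in the SE line. The libraries of Ptbp1-213 overlapped there, with 0.81, 0 and 0 CPM at basal and 2.51, 5.49 and 0.73 CPM after KCl, and its call was lost in 8 of 12 alternative analyses. Tra2a encodes a splicing activator, and Tra2a-205 went from 1.59, 1.72, 1.77 and 1.29 to 5.96, 7.36, 6.89 and 4.88 CPM in the SA line and from 1.55, 3.49 and 1.25 to 9.35, 9.72 and 10.9 CPM in the SE line. Srsf5-212, from the gene of a serine- and arginine-rich splicing factor, went from 32.1, 35.5, 28.2 and 31.1 to 53.2, 63, 58.1 and 50.1 CPM (0.83 ± 0.12, adjusted p = 0.0185) and from 34.5, 34 and 24.5 to 53.2, 60.0 and 62.1 CPM (0.92 ± 0.14, adjusted p = 0.0167). Tra2b-203 rose in the SE line by 1.42 ± 0.23, adjusted p = 0.0196, and changed by 0.99 ± 0.19, adjusted p = 0.0703, in the SA line.

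No member of the chromatin remodelling list (29 members), of RNA export and decay genes (16), of synapse and channel genes (36) or of delayed response genes (2) was called after KCl in either line with edgeR or limma. Of 82 members of ribosome and translation genes, Rpl22l1-208 rose in both lines (1.84 ± 0.28, adjusted p = 0.0234, and 1.87 ± 0.32, adjusted p = 0.028). The members that fell in the SA line were Mars-205, Coro1b-205, Acaa1a-209, Hes6-202, Sptlc2-203 and Ip6k2-207. Mars-205, from the gene of the methionyl-tRNA synthetase, went from 7.23, 7.65, 6.12 and 5.54 to 3.85, 3.72, 2.17 and 1.34 CPM there. Hes6-202, from the gene of a helix-loop-helix factor of neurogenesis, went from 7.18, 6.75, 6.09 and 6.24 to 3.16, 3.63, 3.44 and 3.06 CPM, without overlap. The other transcripts of these genes changed by 0.15 ± 0.15 and 0.08 ± 0.15.

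Among the 24 members that rose in the SA line, Ctnnb1-210 and Ndufs1-210 had overlapping libraries. Ctnnb1-210, from the gene of beta-catenin, was at 0, 0.02, 6.75 and 5.01 CPM at basal and 6.54, 14.4, 8.35 and 6.22 CPM after KCl, with both wild-type basal libraries at or near 0. Ndufs1-210, from the gene of a subunit of respiratory complex I, was at 1.36, 1.77, 0 and 0 CPM and 0.35, 1.25, 3.01 and 1.75 CPM, with both mutant basal libraries at 0. Of the 51 that rose in the SE line, Ptbp1-213, given above, and 2810428I15Rik-207 (basal 0 to 1.29 CPM, KCl 1.13 to 1.49 CPM) overlapped. Over all members, treatments did not overlap for 9.97% in the SA line and 26.2% in the SE line. With fewer libraries per treatment in the SE line, full separation by chance is more frequent there. The shares therefore cannot be compared between the lines, and a lack of overlap carries less weight in the SE line. No such share over all transcripts is given here to set beside them.

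The difference in KCl response between the lines was tested next. In level, edgeR called 0 of 2818 members (0.0922% of all transcripts), 156 had an unadjusted p under 0.05 and DESeq2 called 14. In ratio, limma called 0 of 2785 (0.133%), 150 had an unadjusted p under 0.05 and diffSpliceDGE called 6.

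Each mutant was compared with the wild type of its line. In level, edgeR called 0 members for SA at basal and after KCl (0.00329% and 0.0% of all transcripts), with 106 and 126 at an unadjusted p under 0.05 and 5 and 9 called by DESeq2. For SE it also called 0 (0.0625% and 0.0329%), with 107 and 103 at an unadjusted p under 0.05 and 2 and 10 called by DESeq2. In ratio, limma called 3 members at basal and 0 after KCl for SA (0.0772% and 0.0386% of all transcripts; 114 members after KCl at an unadjusted p under 0.05, 1 called by diffSpliceDGE). For SE it called 7 and 10 (0.592% and 0.605%), against 1 wild-type library. Of the called members, 2 of 3, 6 of 7 and 5 of 10 had a library listed at 0 among those compared. The 3 calls for SA at basal became 8, 6, 11 and 9 when wild type 1, wild type 2, SA 1 or SA 2 was left out, the 7 for SE at basal became 17 without SE 1, and the 10 after KCl became 24 without SE 2.

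The lines differed in more members than the treatments did. At basal, between 3 SE-line and 4 SA-line libraries, 242 members were higher and 176 lower in the SE line (8.59% and 6.25% of the members, beside 12.8% and 17.2% of all transcripts). After KCl, 251 were higher and 258 lower (8.91% and 9.16% of the members, beside 13.8% and 17.8% of all transcripts). With wild-type libraries alone the counts were 121 at basal and 157 after KCl. The comparison of all libraries holds the mutants of both lines, so line, mutation, handling and sequencing cannot be told apart in it. Nor can fewer cells of a type and less RNA per cell in bulk samples. The summed markers of each of the 6 cell types other than neurons, given above, were higher in every SA-line library than in any SE-line library, and their part in these differences was not tested. The basal count of 418 was 277 without SA basal 2 and 214 without SE basal 2, and the count of 509 after KCl was 327 without SA KCl 2 and 272 without SE KCl 1.

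The other transcripts were called higher in the SE line for 604 and lower for 375 of the 2119 member genes (24.3% and 28.0% of all genes). Of the 242 members that were higher, they were called higher for 126, lower for 14 and not called for 96, and the rest could not be tested. Of the 176 that were lower, they were called lower for 112, higher for 14 and not called for 50. The ratio was higher for 75 members and lower for 50 at basal (3.4% and 4.12% of all transcripts), and for 68 and 103 after KCl (3.53% and 4.6%). The balance at basal turned to 36 and 59 (higher and lower) without SE basal 1, 17 and 22 without SE basal 2 and 3 and 12 with wild-type libraries alone. After KCl it turned to 72 and 56 without wild-type KCl 2 of the SA line and 52 and 35 with a minimum mean of 100. The 125 basal calls became 39 without SE basal 2 and 51 without SA basal 2, and 67 to 70 without wild-type basal 1 or 2 or SA basal 1 of the SA line or the wild-type basal library of the SE line. The 171 calls after KCl became 82 to 106 without SA KCl 1 or 2, wild-type KCl 1 of the SA line, or any KCl library of the SE line.

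The chromatin remodelling list had 4 members higher and 2 lower in the SE line at basal (13.8% and 6.90% of its 29 members, beside 12.8% and 17.2% of all transcripts). Smarcd3 encodes a BAF subunit, and Smarcd3-206 lies at chr5:24595735-24598938 with parts of introns. It was at 0.72, 0.64, 1.12 and 1.03 CPM in the SA line and 10.8, 10.6 and 12.5 CPM in the SE line at basal, and at 0.36, 0.30, 1.36 and 0.93 and 10.5, 11.6 and 10.1 CPM after KCl. In the SA line both mutant libraries were above both wild-type libraries at basal and after KCl, and in the SE line the wild-type library lay between the mutant ones. The basal log2 difference between the lines was 3.71 ± 0.21, beside 0.91 ± 0.12 for the other transcripts, and the ratio differed by 2.81 ± 0.15. Smarcd3-206 had 6.99 to 30.7 estimated counts in the SA-line libraries. It passed the minimum mean only through the SE line, so these values are a description. Smarca5-202, from the gene of a remodeller ATPase of the ISWI family, was lower in the SE line, at 4.95, 2.65 and 5.87 CPM against 24.6, 18.8, 10.9 and 16.8 CPM.

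Some members differed between the lines unlike the rest of their genes. Kif22 encodes a kinesin of dividing cells, and its other transcripts were at 32, 21.4, 13.8 and 26.4 CPM in the SA line and 1.60, 1.99 and 1.93 CPM in the SE line at basal. Kif22-204, with whole introns at 4 places, was at 0.72, 0.59, 0.94 and 1.30 and 1.45, 1.55 and 1.50 CPM. Its ratio was higher in the SE line by 4.40 ± 0.35, while its level was not called (0.80 ± 0.28). The SA-line libraries held 14 to 30 estimated counts of Kif22-204 and averaged just under 20. It passed the minimum mean only through the SE line, so these values are a description. Gins2 encodes a subunit of the replicative helicase. Gins2-203 was at 0.51, 0, 0.01 and 0 CPM in the SA line and 12.3, 9.29 and 19.5 CPM in the SE line, while Gins2-204 was at 2.48, 1.35, 0.05 and 1.39 CPM in the SA line and listed at 0 in every SE-line library. Each passed the minimum mean only through the line where it was high, so these values are a description. Both are transcripts of 1 gene among which reads are divided by the model.

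Ppp1r9a encodes neurabin, an actin-binding scaffold of dendritic spines. Ppp1r9a-203 was at 2.55, 4.66, 3.45 and 0.75 CPM in the basal libraries of the SA line and listed at 0 in every library of the SE line. It passed the minimum mean only through the SA line, so these values are a description. The other transcripts of the gene overlapped between the lines, with 90.6 to 137 and 111 to 130 CPM. Of the 36 members of synapse and channel genes, 4 were higher and 6 lower in the SE line at basal (11.1% and 16.7%, near the 12.8% and 17.2% of all transcripts). Gria2-204, from the gene of an AMPA receptor subunit, was at 12.6, 10.6 and 6.72 CPM in the SE line against 15.3, 22.7, 19.2 and 20.5 CPM, and its ratio differed by -1.34 ± 0.20, adjusted p = 0.00916 (limma). Kcnn3-202, from the gene of a calcium-activated potassium channel, was lower in level (-1.58 ± 0.10, adjusted p = 5.81e-05) with its gene (-1.56 ± 0.16), and its ratio differed by 0.02 ± 0.18. After KCl, 3 of the synapse and channel members were higher and 11 lower in the SE line (8.33% and 30.6%, beside 13.8% and 17.8% of all transcripts).

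Of the 118 members of splicing and RNA-binding genes, 2 were higher and 12 lower in the SE line at basal (1.69% and 10.2%, both under the shares of all transcripts, 12.8% and 17.2%), with a median log2 difference of -0.26 beside 0.07 over all members. Ogt-204, from the gene of the O-GlcNAc transferase, is on this list though the enzyme is not a splicing factor. It was at 5.17, 5.82 and 3.46 CPM against 7.79, 12.2, 8.60 and 8.24 CPM in the SA line, and its ratio differed by -1.25 ± 0.18, adjusted p = 0.00881 (limma). Ribosome and translation genes had 4 members higher and 2 lower (4.88% and 2.44% of 82, also under those shares). Rps26-202 was at 23.3, 18.9 and 15 CPM against 7.57, 7.05, 8.85 and 10.8 CPM, a difference of 1.16 ± 0.14, adjusted p = 0.000667. Mars-205, which fell after KCl in the SA line, was at 22, 23.4 and 23.6 CPM in the basal libraries of the SE line against 5.54 to 7.65 CPM. The splicing and RNA-binding list stood otherwise after KCl, with 3 members higher and 29 lower in the SE line. These were 2.54% and 24.6%, beside 13.8% and 17.8% of all transcripts. The ratio after KCl was higher for 2 and lower for 16 of its members (1.69% and 13.6%, beside 3.53% and 4.6%).

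**Figure D5:**
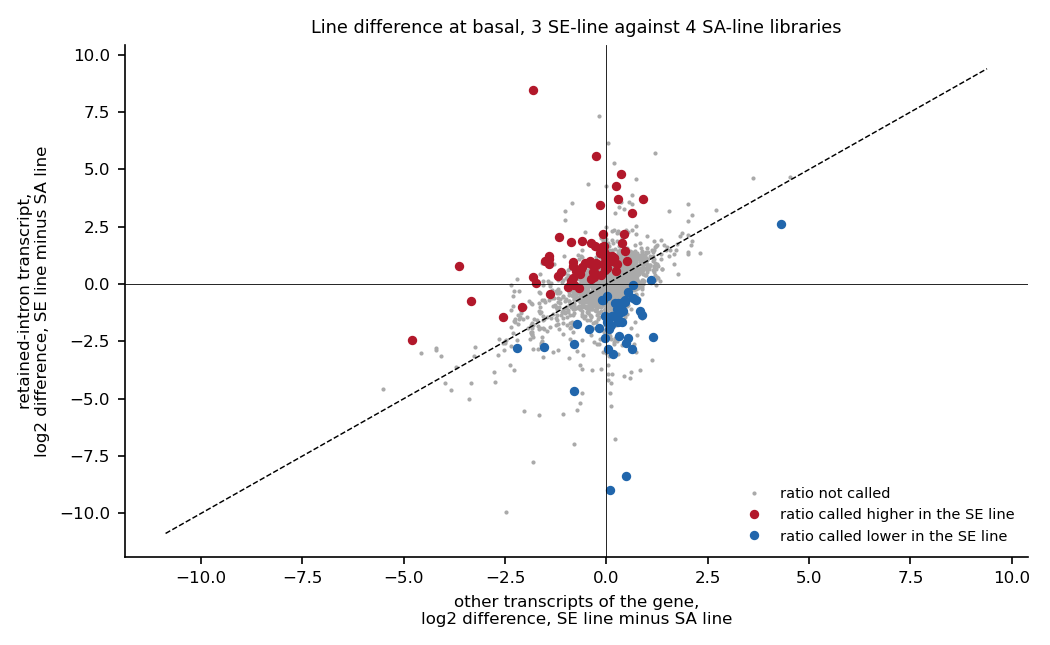
Log2 difference at basal, SE line minus SA line, of each retained-intron transcript (vertical axis) and of the summed other transcripts of its gene (horizontal axis), 3 against 4 libraries. Each point is 1 member and on the dashed line both differ equally; red points (75) had a higher and blue points (50) a lower ratio in the SE line at an adjusted p under 0.05.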

How the data were processed

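RNA was measured in 14 libraries. The authors deposited estimated counts and TPM per transcript and library; kallisto 0.43.1, GRCm38 and mm10 are named per the submitters' processing notes, and the annotation release and strand setting are not given in the sources used here. Estimated counts were rounded to whole numbers for edgeR 4.0.16 (TMM, glmQLFit and glmQLFTest, 8 group means, 6 residual degrees of freedom) over the 30385 transcripts with a mean of at least 20. Groups with 1 library were assumed to vary like the others, and line effects weight libraries equally. Ratios, log2 of (count + 0.5) over (other transcripts + 0.5), were tested with limma 3.58.1. Adjusted p-values are Benjamini-Hochberg values over all features tested. The tests were tried on simulated data. Alternatives were DESeq2 1.42.0, diffSpliceDGE, other filters and pseudocounts, subsets of libraries and blocks.

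The members and lists were chosen with earlier results of these data known. Members are named by mean TPM (8), by the size of a called change without overlap (up to 6 per direction and comparison), by p within a list (up to 4) and at the threshold; complete classes, members with overlapping libraries, Kif22-204, and other called members were named after their values were seen. One named member is not reported here.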

Additional observations from a re-analysis of the deposited data

Results flagged for a closer look

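Library measures and the CPM of members named for the SA-line KCl response were examined in 30 sets of 4 SA-line libraries, and 1 set held a library far from the others. At basal, wild type 2 had 1.67% of its estimated counts on retained_intron transcripts, against 1.57%, 1.58% and 1.57% in wild type 1, SA 1 and SA 2. Chance alone gives such a library in about 1 of 20 sets.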

How the results depend on the processing

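With DESeq2 and its size factors, members called in level were 87 (SA line after KCl; 56 and 31 higher and lower), 187 (SE line; 94 and 93), 14 (difference in response), 5 and 9 (SA against wild type at basal and after KCl) and 2 and 10 (SE against wild type). With no filter they were 16 and 38 after KCl, 1 for the difference, 213 and 257 between lines at basal and after KCl, and 1 for SA against wild type at basal. Wild-type libraries alone gave 5 and 6 after KCl and 121 and 157 between lines, and mutant libraries alone gave 6 and 27 after KCl. In ratio, diffSpliceDGE called 9 and 27 after KCl, 6 for the difference, 38 and 52 between lines, 1 for SA after KCl and 3 and 2 for SE. A pseudocount of 5 gave 1 for SA at basal and 0 and 0 for SE. A minimum mean of 100 gave 9 and 20 ratio calls after KCl, 87 between lines after KCl, 1 for SA at basal and 0 and 0 for SE. Wild-type libraries alone gave 5 and 19 ratio calls after KCl and 15 and 44 between lines, and mutant libraries alone 3 and 24 after KCl. Without the SA-line wild-type pair that stood apart, an alternative chosen after seeing the data, there were 2 level calls for the difference, and 2 ratio calls for it, 66 and 69 between lines and 8 and 4 for SA at basal and after KCl.

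Replicate numbers were not taken to pair libraries, because the correlation of deviations between basal and KCl libraries of the same number was 0.273 in the SA-line wild type, 0.105 in SA and -0.042 in SE, not positive in all, and the correlations were -0.102 and -0.0846 between SA and its wild type. With the replicate number within each genotype as a replicate block, level calls after KCl were 9 in the SA line, 19 in the SE line and 0 for the difference, and ratio calls 1, 0 and 0. With the number as a replicate block within the SA line, SA against wild type gave 0 and 0 level calls and 2 and 0 ratio calls, and crossed numbers, tried after seeing the data, 1 and 0, and 2 and 0.

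Leaving out 1 library gave level calls of 12 to 27 (SA line after KCl), 26 to 50 (SE line), 0 to 3 (difference), 214 to 378 and 272 to 471 (between lines at basal and after KCl), 0 to 0 for SA against wild type at both times and for SE at basal, and 0 to 1 for SE after KCl. Ratio calls were 9 to 18, 22 to 56, 0 to 7, 39 to 95 and 82 to 128 in the same order, 6 to 11 and 5 to 10 for SA at basal and after KCl, and 8 to 17 and 12 to 24 for SE. Of 261 results for single members, 25 kept their call in every alternative, and the direction turned in 9. With wild-type libraries alone, Ndufs1-210 changed by -0.95 in level and -1.19 in ratio after KCl in the SA line and differed by -0.85 and -1.13 between lines at basal, Pml-210 changed by 0.62 and 0.72 after KCl in the SE line, and Ifrd1-207 differed by 0.21 between lines. Leaving out 1 library, the basal line differences of 2810428I15Rik-207 ranged from -2.76 to 0.13 in level and from -2.08 to 0.11 in ratio, with 0.13 and 0.11 without the SE-line wild-type library. The causes were not tested. Low counts limit precision, and the error of dividing reads among transcripts is not in these tests.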
